A study of Zea mays with 48 samples.

Results

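The question addressed here was whether leaves of the maize inbred W22 changed differently at 33 against 31 °C at stage V5 than at stage V4. It was answered with 12 of the 48 libraries of the study, 3 in each of 4 groups: W22 V5 at 33 °C, W22 V5 at 31 °C, W22 V4 at 33 °C and W22 V4 at 31 °C. W22 is a maize inbred line, grown in the study beside the mutant bzip60-2. V5 leaves were taken at 27 days and V4 leaves at 20 days, from the middle of the newest fully expanded leaf, so leaf, plant age and collection day differ together between the stages. The temperatures are the daily maxima, reached by a daytime ramp, with nights cooler by the same step in every condition. Plants of both genotypes grew in controlled chambers under the same photoperiod, soil water and humidity. Chambers were assigned in pairs to the temperatures, and the effect of a temperature cannot be told apart from that of its chambers. The libraries were chosen by label alone, and the quantity tested was the difference of differences, (V5 at 33 minus V5 at 31) minus (V4 at 33 minus V4 at 31), on log2(FPKM + 1), hereafter the interaction. FPKM is the number of fragments of a transcript relative to its length and to the size of the library.

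A positive interaction means that the 33 °C level stood higher against 31 °C at V5 than it did at V4. Such a value can come from a rise at V5, a fall at V4, or both, which is why the change within each stage is given beside it. Leaf cells draw their transcripts from the nucleus, the plastid and the mitochondrion. The plastid genome encodes core subunits of the photosystems, the chloroplast ATP synthase, the NAD(P)H dehydrogenase complex and part of the plastid ribosome, while the mitochondrial genome encodes core subunits of the respiratory chain and part of its own ribosome. Warmth is known to alter photosynthesis, respiration and protein folding in leaves, and bZIP60, the product of the gene mutated in bzip60-2, switches on genes of the unfolded protein response when misfolded proteins build up in the endoplasmic reticulum.

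The table held 33309 genes, of which 20765 reached 1 FPKM in at least 3 of the 12 libraries and were tested. They comprised 19077 nuclear identifiers, 64 organelle genes and 1624 transcripts named only as BGI_novel. The libraries differed in how far the most abundant transcripts filled them. The 100 genes highest in each library took 25.7 to 26.0% of its FPKM in V5 leaves at 33 °C and 33.4% in V5 leaves at 31 °C, against 38.2 to 38.9% in V4 leaves at 33 °C and 37.7 to 38.3% in V4 leaves at 31 °C. Genes above 0 numbered 26483 to 26641 and 25728 to 25802 at V5, at 33 and 31 °C in that order, and 24520 to 24627 and 24880 to 25144 at V4. Median-of-ratios size factors, which equalise the typical gene, were 1.34 to 1.37 in V5 leaves at 33 °C, 1.03 to 1.05 in V5 leaves at 31 °C, 0.832 to 0.844 in V4 leaves at 33 °C and 0.881 to 0.892 in V4 leaves at 31 °C. Because FPKM gives shares of a library and not RNA per cell, most results are given both as deposited and after division by these factors. Results without a scaled value are as deposited, and fewer cells of a type and less RNA per cell cannot be told apart. Replicates lay close together, with a median coefficient of variation of 2.71 to 2.94% per group over 2006 genes averaging 50 FPKM or more in every group. The depth in reads is not known, although the smallest steps of the low values put the relative depth of the 12 libraries between 0.914 and 1.08.

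The change with temperature differed between the stages for many genes, and how many depended on the scale. As deposited, 12367 of 20765 genes (59.6%) passed an adjusted p of 0.05 for the interaction in limma, with 10243 higher (49.3%) and 2124 lower (10.2%). The median interaction was 0.37 on the log2 scale, so the typical gene itself stood higher. After scaling, 9041 genes passed (43.5%), with 3917 higher (18.9%) and 5124 lower (24.7%), and the median was -0.01. The split between directions therefore turned with the scaling, and 366 genes passed on the 2 scales in opposite directions. There were 6036 genes (29.1%) that passed in 1 direction on both scales, 3917 higher and 2119 lower.

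A change of at least 2-fold separated a smaller set. As deposited, 2413 genes (11.6%) had an interaction at least 2-fold higher and 436 (2.1%) at least 2-fold lower. After scaling the counts were 1030 (4.96%) and 1023 (4.93%). Both scales together gave 1030 genes higher and 433 lower. As deposited, 1029 and 422 of these stayed past the threshold of 0.05 in the same direction whichever of the 12 libraries was left out. These 1463 genes are described next. Of 432 genes that reached 1 FPKM in all V5 libraries at 33 °C and in no other library, 75 were among the 1030, and such genes could pass the filter only because they were high there.

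Within the stages, V5 leaves showed the broader change. In V5 leaves, 11327 genes were higher and 2673 lower at 33 °C than at 31 °C as deposited (54.5% and 12.9%), and 4827 were higher and 5830 lower after scaling (23.2% and 28.1%). In V4 leaves, 1778 genes were higher and 3547 lower at 33 °C as deposited (8.56% and 17.1%), and 2913 were higher and 2606 lower after scaling (14% and 12.5%). The median change was 0.31 at V5 and -0.06 at V4 as deposited. Across the 20765 genes, which are not independent replicates, the change at V5 had Pearson's r of 0.07 and Spearman's rho of 0.01 with the change at V4 as deposited. After scaling these were 0.05 and -0.01.

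Among genes with a large positive interaction, a change in opposite directions at the stages was the most frequent pattern on both scales. Of the 1030, 564 (54.8%) rose at V5 and fell at V4, each past the threshold, as deposited. Another 400 passed at V5 and did not pass at V4, 40 passed at V4 and did not pass at V5, 22 passed at both stages in 1 direction and 4 passed at neither. After scaling, 460 of the 1030 (44.7%) passed in opposite directions, 414 passed at V5 alone and 112 at V4 alone. Over all 10243 genes with a higher interaction as deposited, 17.4% passed in opposite directions and 68.2% at V5 alone. Over the 3917 after scaling these shares were 18.5% and 56.2%. The opposite pattern was thus the most frequent one only in the 2-fold set. The level was highest in V5 leaves at 33 °C for 919 of the 1030 genes (89.2%) and lowest in V4 leaves at 33 °C for 783 (76.0%) as deposited, and after scaling for 804 (78.1%) and 667 (64.8%). Over all genes tested, V5 leaves at 33 °C held the highest level in 68.2% as deposited and 35.0% after scaling, and V4 leaves at 33 °C the lowest in 47.5% and 26.6%. These shares describe genes chosen by this same contrast and carry no test.

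Genes with a large negative interaction had the reverse pattern, in different proportions. Of the 433, 171 (39.5%) fell at V5 and rose at V4 as deposited, 150 passed at V5 and did not pass at V4, 42 passed at V4 and did not pass at V5, 67 passed at both stages in 1 direction and 3 at neither. After scaling, 224 (51.7%) passed in opposite directions. Over all 2124 genes with a lower interaction as deposited, 20.2% passed in opposite directions and 44.4% at V5 alone. Over the 5124 after scaling these shares were 25.6% and 50.4%. V5 leaves at 33 °C had the lowest level in 334 of the 433 (77.1%) as deposited and 364 (84.1%) after scaling, and V4 leaves at 33 °C had the highest level in 222 (51.3%) and 276 (63.7%). Over all genes tested, V5 leaves at 33 °C were lowest in 11.5% and 33.5%, and V4 leaves at 33 °C highest in 8.64% and 26.1%, as deposited and after scaling.

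**Figure D1:**
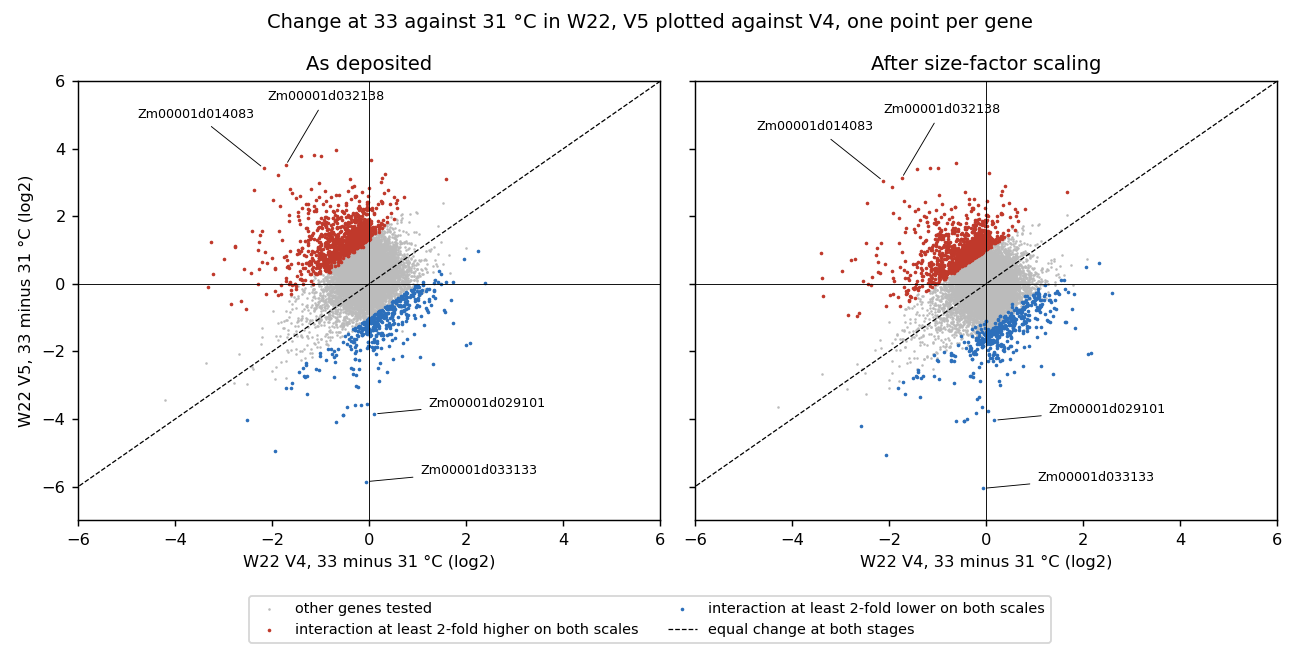
Change at 33 against 31 °C in W22 for each of 20765 genes on the log2(FPKM + 1) scale, V5 on the vertical axis and V4 on the horizontal axis, as deposited (left) and after size-factor scaling (right). Red points are the 1030 genes with an interaction at least 2-fold higher on both scales, blue points the 433 at least 2-fold lower, and the dashed line marks an equal change at both stages.

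Genes with a large change at one stage were then followed to the other. Of 1528 genes (7.36%) at least 2-fold higher at 33 °C in V5 leaves, 145 were higher, 372 lower and 1011 did not pass in V4 leaves, where 8.56% of all genes were higher and 17.1% lower. After scaling, 585 genes (2.82%) were at least 2-fold higher at V5, and 70 of them were higher and 178 lower at V4. Over all genes tested, 14% were then higher and 12.5% lower at V4. Among genes that fell at V5, those passing at V4 mostly fell there too: of 460 genes (2.22%) at least 2-fold lower in V5 leaves, 244 (53.0%) were lower and 55 higher in V4 leaves, and after scaling, when 845 genes (4.07%) were at least 2-fold lower in V5 leaves, 312 of them (36.9%) were lower and 205 higher in V4 leaves. In the other direction, 385 genes (1.85%) were at least 2-fold lower in V4 leaves at 33 °C. In V5 leaves 172 of them (44.7%) were lower and 149 (38.7%) higher. Of 81 genes (0.39%) at least 2-fold higher in V4 leaves, 23 (28.4%) were lower and 31 (38.3%) higher in V5 leaves. Over all genes tested, 12.9% were lower and 54.5% higher in V5 leaves. After scaling, of 362 genes (1.74%) at least 2-fold lower in V4 leaves, 182 (50.3%) were lower and 101 (27.9%) higher in V5 leaves. Of 131 genes (0.631%) at least 2-fold higher in V4 leaves, 48 (36.6%) were lower and 24 (18.3%) higher in V5 leaves. Over all genes tested, 28.1% were then lower and 23.2% higher in V5 leaves. The balance for the second set thus turned with the scale, and so did that over all genes. The stages share no library, so these counts compare separate measurements.

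The most abundant transcripts stood apart from the rest. When genes were divided into 10 equal bins by their mean level over the 12 libraries, 40.5% of the highest bin had a higher and 36.9% a lower interaction as deposited, against 37.4 and 4.53% of the lowest bin. After scaling, 12.8% of the highest bin were higher and 69.9% lower, against 21.8 and 6.11% of the lowest bin. The median interaction in the highest bin was 0.04 as deposited and -0.41 after scaling, and in the lowest bin 0.45 and 0.22. The filter bears on the low bins. Of the 432 genes that reached 1 FPKM in all V5 libraries at 33 °C and in no other library, 381 were called higher and 0 lower as deposited. Their mean levels had a median of 0.743 FPKM, and they passed the filter only because they were high there. Their part in the values of the lowest bin was not tested. Among the 100 genes with the highest mean, 80 were lower and 13 higher as deposited, with a median of -0.58, and 94 were lower and 4 higher after scaling, with a median of -1.04. Together those 100 genes made up 24.99 to 25.3% of the summed FPKM in V5 leaves at 33 °C and 33.2% in V5 leaves at 31 °C, against 37.9 to 38.6% in V4 leaves at 33 °C and 37.3 to 37.9% in V4 leaves at 31 °C. Their share was lower at 33 °C in V5 leaves and slightly higher at 33 °C in V4 leaves, where the lowest 33 °C library (37.896%) stood just above the highest 31 °C library (37.86%). BGI_novel transcripts had 457 higher and 76 lower interactions of 1624 as deposited, and 187 and 184 after scaling.

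**Figure D2:**
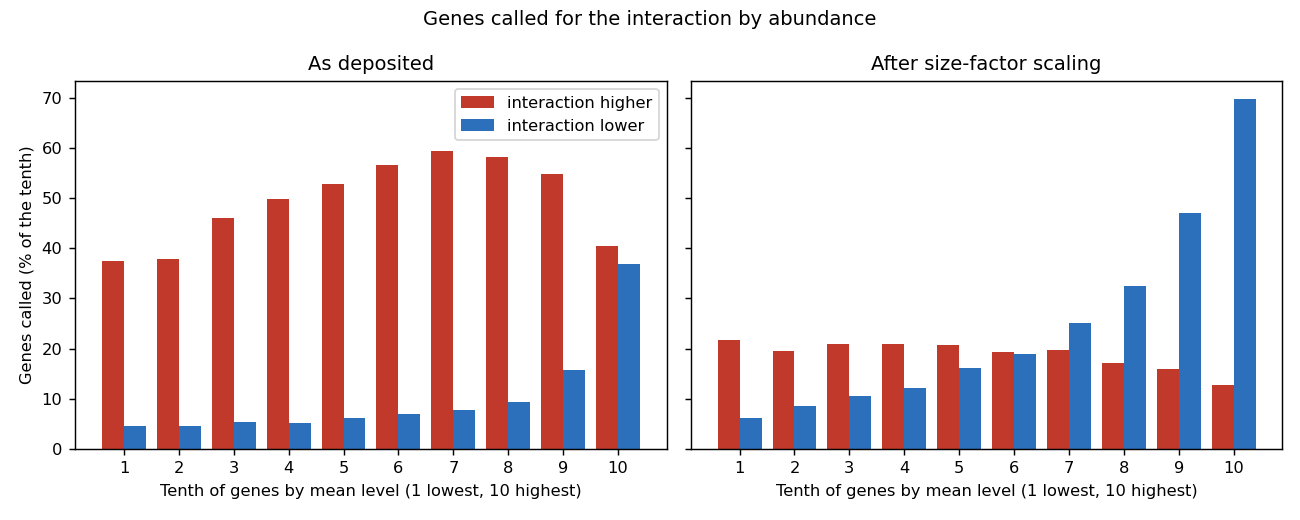
Share of genes with a higher (red) or lower (blue) interaction at an adjusted p of 0.05, in percent of each of 10 equal bins of the 20765 genes ordered by mean log2(FPKM + 1), as deposited (left) and after size-factor scaling (right). The share with a lower interaction is largest in the highest bin on both scales, 36.9% as deposited and 69.9% after scaling.

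The nuclear identifiers could not be paired with gene names, so genes are given by identifier, without a role. They are the 2 with the largest interactions in each direction among genes that met the rule for named genes described below. The ranking used the smaller of the values on the 2 scales. Zm00001d014083 had 42.1, 45.6 and 45.6 FPKM in V5 leaves at 33 °C, 3.22, 3.29 and 3.21 FPKM in V5 leaves at 31 °C, 7.63, 7.80 and 7.27 FPKM in V4 leaves at 33 °C, and 38.1, 36.9 and 38.5 FPKM in V4 leaves at 31 °C. Its 33 °C libraries were thus high at V5 and low at V4, with no overlap between the temperatures at either stage. The change was 3.42 at V5 and -2.18 at V4, and the interaction was 5.60 ± 0.0796 (log2, SE; adjusted p = 1.16e-13), or 5.17 after scaling. In W22 the level did not stay on one course with further warming: V5 leaves had 61.9 to 65.1 FPKM at 35 °C and 16.0 to 16.8 FPKM at 37 °C, and V4 leaves had 21.6 to 25.1 FPKM at 35 °C and 7.26 to 8.76 FPKM at 37 °C.

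Zm00001d032138 showed the same crossing at a lower level. It had 17.3, 15.01 and 16.0 FPKM in V5 leaves at 33 °C and 0.78, 0.60 and 0.20 FPKM in V5 leaves at 31 °C, against 0.86, 1.06 and 1.00 FPKM in V4 leaves at 33 °C and 6.00, 5.11 and 5.48 FPKM in V4 leaves at 31 °C. Again no library of one temperature reached the other at either stage. The interaction was 5.23 ± 0.192 (log2, SE; adjusted p = 1.47e-10), from 3.50 at V5 and -1.73 at V4, and 4.86 after scaling. At 35 °C its level was 6.86 to 8.47 FPKM in V5 leaves and 9.08 to 10.7 FPKM in V4 leaves.

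Zm00001d029101 lost most of its signal at V5 alone. V5 leaves at 33 °C had 1.38, 1.03 and 2.15 FPKM and V5 leaves at 31 °C had 32.1, 36.6 and 35.9 FPKM, against 4.65, 4.33 and 6.38 FPKM in V4 leaves at 33 °C and 5.01, 4.89 and 4.13 FPKM in V4 leaves at 31 °C. The V5 groups were far apart and the V4 groups overlapped. The interaction was -3.95 ± 0.221 (log2, SE; adjusted p = 8.97e-09), with a change of -3.85 at V5 and 0.10 at V4 (adjusted p = 0.707 at V4), and -4.20 after scaling. At 35 and 37 °C V5 leaves stood between those extremes, at 7.70 to 8.52 and 10.5 to 12.1 FPKM.

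The largest negative interaction among genes that met the rule belonged to Zm00001d033133, whose replicates scattered. It had 5.09, 0 and 17.4 FPKM in V5 leaves at 33 °C and 192, 212 and 532 FPKM in V5 leaves at 31 °C, against 0, 0 and 0.98 FPKM in V4 leaves at 33 °C and 0.45, 0 and 0.58 FPKM in V4 leaves at 31 °C. The V5 groups did not overlap, and all V4 libraries were at or near 0. The interaction was -5.79 ± 1.08 (log2, SE; adjusted p = 0.00055), -4.65 without V5 33 °C replicate 2 and -6.75 without V5 33 °C replicate 3. The gene also moved between single libraries of one group, with 785 FPKM in replicate 3 of W22 V4 leaves at 37 °C and 3.40 and 0.47 FPKM in the other two. Its next-numbered identifier, Zm00001d033132, was at 94.3 to 324 FPKM in the 6 V5 libraries and at 0.27 to 1.21 FPKM in the 6 V4 libraries compared. Replicate 3 of W22 V4 leaves at 37 °C, high for Zm00001d033133, had 172 FPKM of Zm00001d033132 as well, against 0.33 and 1.29 FPKM in the other two. What part this has in the interaction of Zm00001d033133 was not tested.

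**Figure D3:**
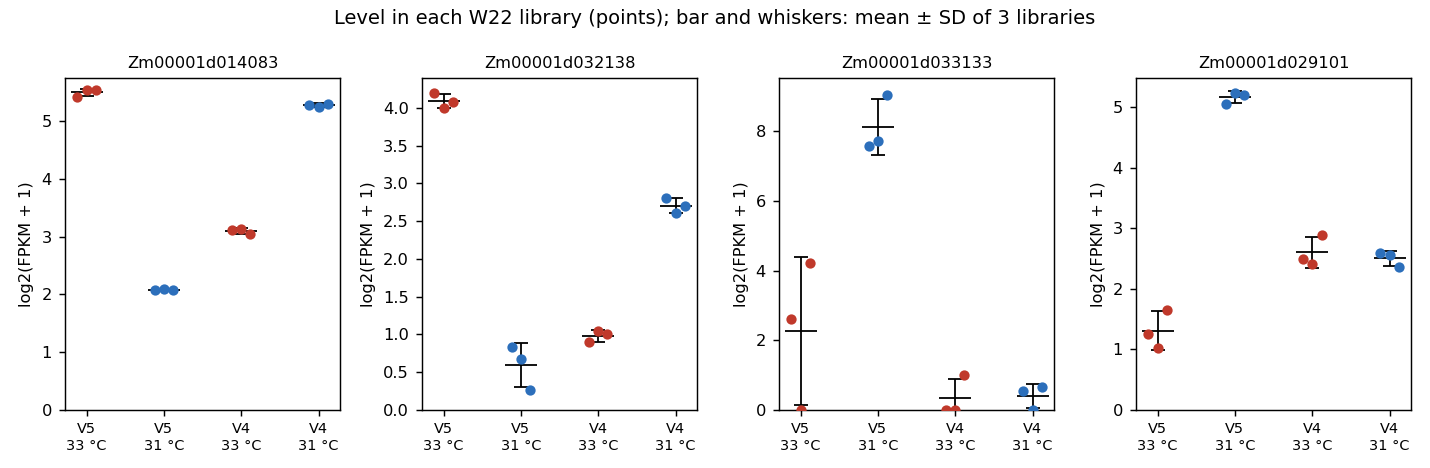
Level of the 4 nuclear genes with the largest interactions in each W22 library, in log2(FPKM + 1), for V5 at 33 °C, V5 at 31 °C, V4 at 33 °C and V4 at 31 °C. Points are libraries, red at 33 °C and blue at 31 °C, and bars with whiskers are the mean ± SD of 3 libraries. Zm00001d014083 and Zm00001d032138 cross between the stages, while Zm00001d029101 and Zm00001d033133 pass the test at V5 and not at V4, with V4 adjusted p of 0.707 and 0.964.

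Mitochondrial transcripts stood higher at 33 °C in V5 leaves. Their summed level was 201 to 213 FPKM in V5 leaves at 33 °C and 110 to 114 FPKM in V5 leaves at 31 °C, against 94.9 to 105 FPKM in V4 leaves at 33 °C and 89.3 to 93.9 FPKM in V4 leaves at 31 °C. The table names 29 mitochondrial genes, 27 of them above 0 in some library (atp1-a1 and atp1-a2 with identical values), and only 16 passed the filter on low values, several of them through the V5 libraries at 33 °C. Counts are therefore given for all 27, tested in a fit without that filter. The interaction was higher for 13 and lower for 1 (rps2A) of the 27 as deposited, with a median of 0.48, where 34.7% of the 30630 genes of that fit were higher and 6.93% lower with a median of 0.22. After scaling, 2 were higher (rps4 and ccmFN) and 2 lower (atp6 and rps2A), with a median of 0.25, where 13.2% of all genes were higher and 16.3% lower. Most of the mitochondrial calls thus depended on the scale. Within the stages, 20 of the 27 rose and 1 fell at V5 as deposited, where 39.9% of all genes of that fit rose and 9.15% fell. At V4, 1 of the 27 rose (atp6) and 0 fell in limma (4 and 0 at an unadjusted p of 0.05), where 5.36% of all genes rose and 10.8% fell.

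Of the mitochondrial genes, rps4, encoding a protein of the small ribosomal subunit, had the largest interaction. It had 2.67, 3.51 and 2.78 FPKM in V5 leaves at 33 °C and 0, 0.66 and 0 FPKM in V5 leaves at 31 °C, and 1 library each of V4 leaves at 33 and 31 °C had 0.08 FPKM with the others at 0. It was thus near the floor everywhere but in V5 leaves at 33 °C. Only those libraries took it past the filter, and in the fit without the filter the interaction was 1.75 ± 0.240 (log2, SE; adjusted p = 0.000155), and 1.44 after scaling (adjusted p = 0.000623). The rps12 gene, for another small-subunit protein, had 40.4, 36.5 and 40.96 FPKM in V5 leaves at 33 °C and 19.7, 21.8 and 23.8 FPKM in V5 leaves at 31 °C, against 7.46, 12.1 and 15.04 FPKM in V4 leaves at 33 °C and 15.5, 10.3 and 12.1 FPKM in V4 leaves at 31 °C. Its V5 groups were apart and its V4 groups overlapped, with an interaction of 0.98 (adjusted p = 0.00654) that did not pass after scaling (0.54, adjusted p = 0.116). The gene rps2B had an interaction of 1.01, and 0.62 after scaling (adjusted p = 0.0785), whereas rps2A, at a mean of 0.123 to 0.570 FPKM per group, had -0.63. The 2 names denote copies of one ribosomal gene, and how reads were divided between them is not known, so both values are uncertain.

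Genes for subunits of the respiratory NADH dehydrogenase, complex I, passed in part. The nad9 gene had 10.2, 11.7 and 13.8 FPKM in V5 leaves at 33 °C and 5.40, 4.01 and 4.97 FPKM in V5 leaves at 31 °C, against 2.88, 1.92 and 0.99 FPKM in V4 leaves at 33 °C and 1.38, 2.2 and 2.28 FPKM in V4 leaves at 31 °C. At V5 every 33 °C library exceeded every 31 °C library, and at V4 the groups overlapped. The interaction was 1.2 ± 0.301 (log2, SE; adjusted p = 0.00407), and 0.80 after scaling (adjusted p = 0.0543). For nad3 it was 0.99, and 0.59 after scaling (adjusted p = 0.0592), and 3 of the 5 complex I genes above 0 (nad9, nad3 and nad4, not nad6 or nad4L) passed as deposited and 0 after scaling in limma (2 at an unadjusted p of 0.05). The 4 genes for cytochrome c oxidase and cytochrome b, which carry out the later electron-transfer steps, were all higher as deposited with a median of 0.67, and 0 passed after scaling in limma (0 at an unadjusted p of 0.05) with a median of 0.33. Among them cox2 had 3.57, 4.49 and 5.02 FPKM in V5 leaves at 33 °C and 1.71, 1.36 and 1.63 FPKM in V5 leaves at 31 °C, against 1.05, 1.09 and 0.60 FPKM in V4 leaves at 33 °C and 0.55, 0.59 and 0.45 FPKM in V4 leaves at 31 °C.

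ATP synthase genes of the mitochondrion were mixed. The atp4 gene had 9.13, 7.40 and 9.73 FPKM in V5 leaves at 33 °C and 2.2, 3.11 and 4.66 FPKM in V5 leaves at 31 °C, against 1.61, 2.2 and 1.52 FPKM in V4 leaves at 33 °C and 1.55, 1.42 and 1.64 FPKM in V4 leaves at 31 °C. Its interaction was 1.08 ± 0.254 (log2, SE; adjusted p = 0.00268), and 0.69 after scaling (adjusted p = 0.0430 with the filter and 0.0796 without it). By contrast atp6 had an interaction of -0.25 as deposited (adjusted p = 0.283) and -0.63 after scaling (adjusted p = 0.0199). It had 4.68, 4.70 and 3.40 FPKM in V5 leaves at 33 °C and 3.02, 3.26 and 3.21 FPKM in V5 leaves at 31 °C, against 1.51, 1.72 and 2.37 FPKM in V4 leaves at 33 °C and 0.82, 0.83 and 1.07 FPKM in V4 leaves at 31 °C. The 33 °C libraries of atp6 were the higher ones at both stages, and the change passed at V4 (0.58, adjusted p = 0.00758) and did not pass at V5 (0.33, adjusted p = 0.051).

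Plastid transcripts went the other way. Their summed level was 1062 to 1174 FPKM in V5 leaves at 33 °C and 1353 to 1462 FPKM in V5 leaves at 31 °C, against 1453 to 1687 FPKM in V4 leaves at 33 °C and 1556 to 1647 FPKM in V4 leaves at 31 °C. Of 48 named plastid genes, 39 were above 0 in some library and 9 were listed at 0. In the fit without the filter, 7 of the 39 had a lower and 0 a higher interaction as deposited, where 6.93% of all genes of that fit were lower, with 32 of 39 negative and a median of -0.22, and 16 were lower and 0 higher after scaling, where 16.3% of all genes were lower, with a median of -0.55. At an unadjusted p of 0.05 the counts were 8 lower and 0 higher as deposited, and 19 and 0 after scaling. At V5, 12 of the 39 fell and 0 rose (14 and 0 at an unadjusted p of 0.05) as deposited, where 9.15% of all genes fell. At V4, 3 fell (atpI, ycf3 and rpl16) and 1 rose (ndhA), where 10.8% of all genes fell, so the V4 share was close to that of all genes.

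The ndhA gene, for a membrane subunit of the plastid NAD(P)H dehydrogenase that carries cyclic electron flow, had the largest interaction of the plastid genes called. It had 2.18, 2.63 and 2.08 FPKM in V5 leaves at 33 °C and 3.52, 3.07 and 3.75 FPKM in V5 leaves at 31 °C, against 4.11, 3.48 and 3.79 FPKM in V4 leaves at 33 °C and 2.49, 2.37 and 3.00 FPKM in V4 leaves at 31 °C. The 33 °C libraries were the lower ones at V5 and the higher ones at V4, without overlap at either stage. The interaction was -0.84 ± 0.161 (log2, SE; adjusted p = 0.000645), from -0.43 at V5 and 0.41 at V4, and -1.16 after scaling. The intron maturase matK, needed to splice several plastid introns, crossed in the same way, with 2.32, 2.14 and 2.49 FPKM in V5 leaves at 33 °C and 3.77, 2.98 and 3.22 FPKM in V5 leaves at 31 °C, against 5.31, 7.08 and 7.23 FPKM in V4 leaves at 33 °C and 4.36, 4.93 and 5.10 FPKM in V4 leaves at 31 °C. Its interaction was -0.75 (adjusted p = 0.0021), and -1.07 after scaling.

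Genes of the plastid ATP synthase and ribosome had smaller interactions. The atpF gene, for a subunit of the chloroplast ATP synthase stalk, had 50.7, 44.3 and 57.3 FPKM in V5 leaves at 33 °C and 66.3, 77.2 and 66.6 FPKM in V5 leaves at 31 °C, against 90.4, 94.2 and 106 FPKM in V4 leaves at 33 °C and 90.3, 95.0 and 103 FPKM in V4 leaves at 31 °C. Its V5 groups were apart and its V4 groups nearly coincided, and the interaction was -0.47 (adjusted p = 0.00697), or -0.91 after scaling. The ribosomal gene rps3 had 212, 189 and 222 FPKM in V5 leaves at 33 °C and 234, 232 and 262 FPKM in V5 leaves at 31 °C, against 268, 249 and 327 FPKM in V4 leaves at 33 °C and 236, 247 and 255 FPKM in V4 leaves at 31 °C. Its V5 groups did not overlap and its V4 groups did, and its interaction was -0.41 (adjusted p = 0.0112), and -0.86 after scaling. For atpB, the catalytic ATP synthase subunit, the interaction was -0.52 as deposited, and the change passed at neither stage (adjusted p = 0.082 at V5 and 0.0548 at V4). After scaling the atpB interaction was -0.91 (adjusted p = 0.000268). The change then passed at both stages, with -0.53 at V5 (adjusted p = 0.000956) and 0.38 at V4 (adjusted p = 0.0186). For rpl22 the interaction was -0.35 as deposited (adjusted p = 0.0197), and the call was lost without V4 31 °C replicate 3 (adjusted p = 0.0515) or V5 31 °C replicate 3 (adjusted p = 0.0516), while after scaling it was -0.80 and passed.

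Another dehydrogenase gene, ndhK, had 293, 241 and 254 FPKM in V5 leaves at 33 °C and 334, 336 and 359 FPKM in V5 leaves at 31 °C, against 415, 380 and 398 FPKM in V4 leaves at 33 °C and 412, 441 and 410 FPKM in V4 leaves at 31 °C, and its interaction was -0.31 (adjusted p = 0.00769), or -0.76 after scaling. The photosystem I core genes psaA and psaB did not pass as deposited, at -0.13 (adjusted p = 0.442) and -0.22 (adjusted p = 0.225), and both were lower after scaling, at -0.55 and -0.64. For psaA both stages fell at 33 °C as deposited, by 0.44 at V5 and by 0.31 at V4 on the log2 scale. Assembly factor gene ycf3 of photosystem I had an interaction of 0.20 (adjusted p = 0.17), and -0.24 after scaling (adjusted p = 0.119). Libraries were made from poly(A) RNA, and organelle transcripts mostly lack long poly(A) tails, so these values describe the organelle RNA captured. Whether capture differed between the groups was not tested.

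**Figure D4:**
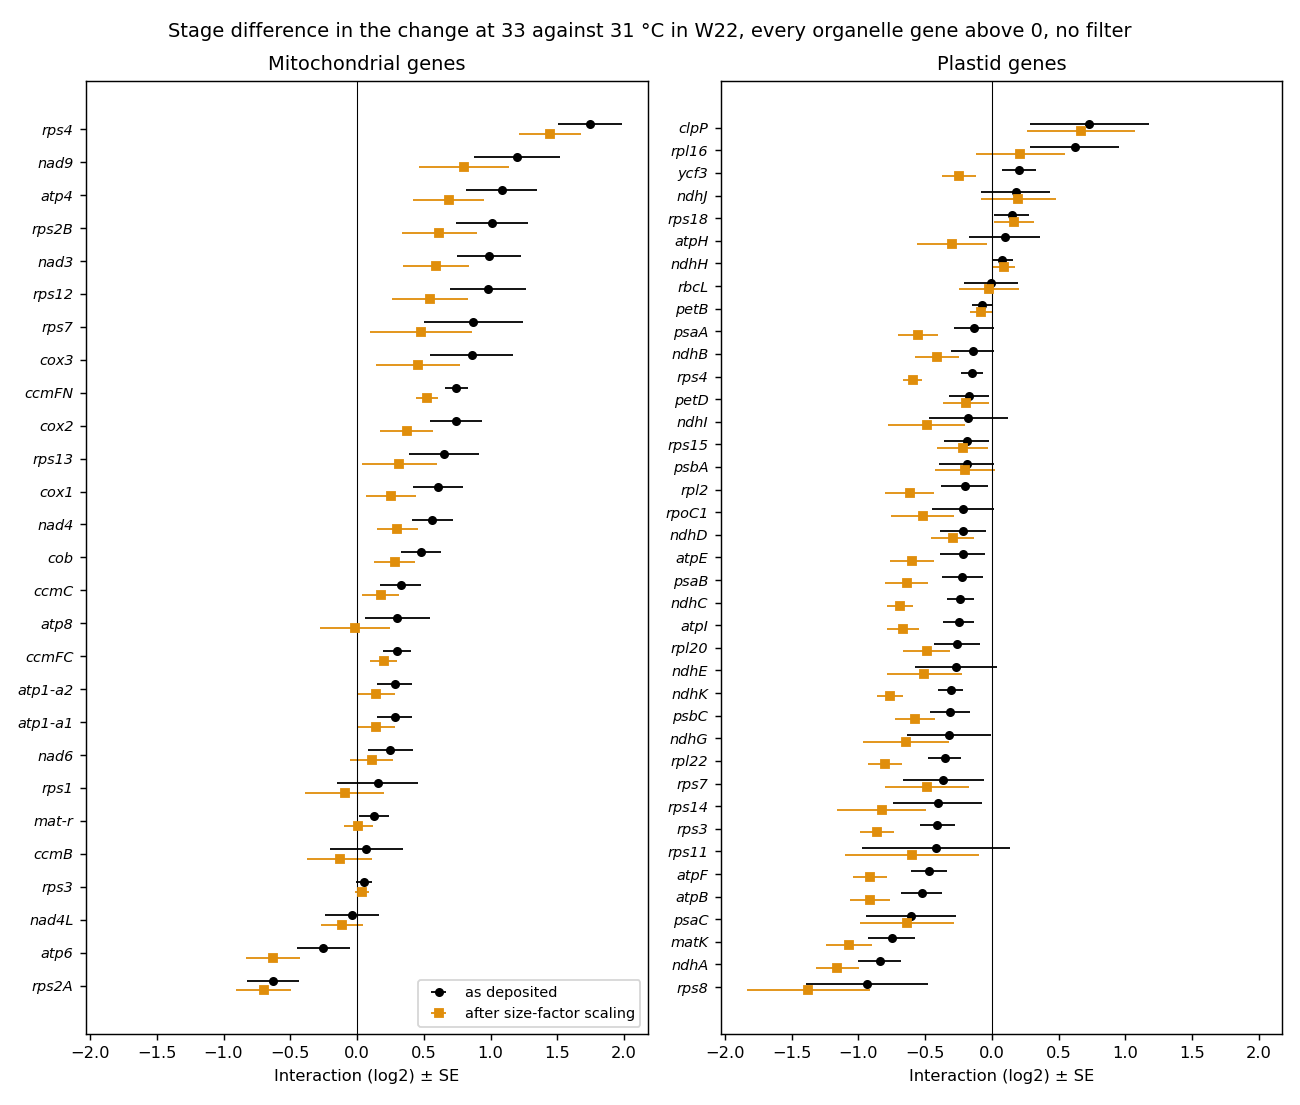
Interaction (log2 ± SE) of the 27 mitochondrial and 39 plastid genes above 0 in some library, from the fit without a filter on low values, as deposited (black circles) and after size-factor scaling (orange squares). As deposited 24 of 27 mitochondrial genes lie above 0 and 32 of 39 plastid genes below it, and after scaling 21 and 34.

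The genes chosen at 33 °C were followed to the warmer conditions, whose libraries took no part in the choice. For the 1030 genes, the median level in W22 V5 leaves was 2.09, 3.43, 2.82 and 2.21 log2(FPKM + 1) at 31, 33, 35 and 37 °C, so that it stood highest at 33 °C and had returned to near its 31 °C value at 37 °C. In W22 V4 leaves the medians were 2.22, 1.49, 2.01 and 1.97, lowest at 33 °C. For the 433 genes, the V5 medians were 3.96, 2.84, 3.26 and 3.57 and the V4 medians 3.70, 4.18, 4.00 and 4.05. Over all genes tested the V5 medians were 3.20, 3.56, 3.37 and 3.21 and the V4 medians 2.96, 2.87, 3.05 and 3.01. The 31 and 33 °C values are those the choice rests on, and the levels are as deposited.

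**Figure D5:**
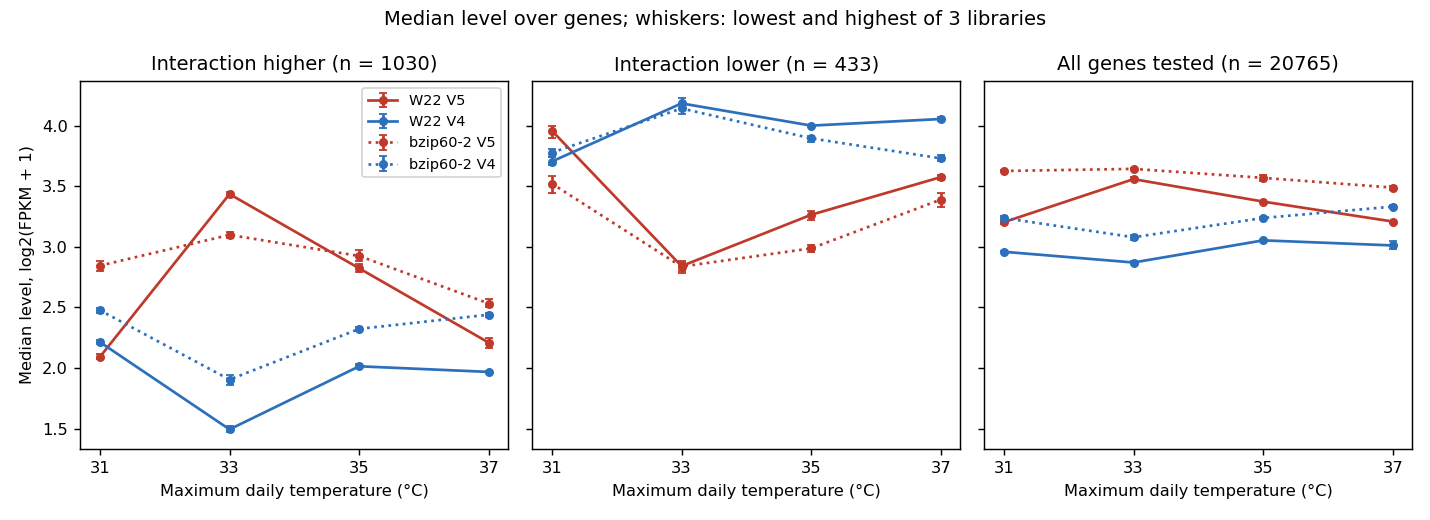
Median log2(FPKM + 1) over the 1030 genes with a higher interaction (left), the 433 with a lower interaction (middle) and all 20765 genes tested (right), by daily maximum temperature in °C. Lines are W22 (solid) and bzip60-2 (dotted) at V5 (red) and V4 (blue), points are the mean of the 3 library medians, and whiskers span the lowest and highest of 3 libraries. W22 V5 and W22 V4 lie farthest apart at 33 °C in all 3 panels, which in the left and middle panels follows from how the genes were chosen.

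The same difference of differences could be formed from separate libraries of bzip60-2, 3 in each of its 4 groups at the same stages and temperatures. The W22 interaction had a median of 1.72 over the 1030 genes, by which they were chosen, and the bzip60-2 interaction had a median of 0.67. In bzip60-2, 622 of the 1030 (60.4%) had a higher and 32 a lower interaction, where 28.1% of the 20765 genes were higher and 11.4% lower. Of the 433, 264 (61.0%) had a lower and 41 a higher interaction in bzip60-2, with a median of -1.31 in W22 and -0.64 in bzip60-2. After scaling the counts in bzip60-2 were 527 higher and 47 lower of the 1030, and 25 higher and 295 lower of the 433, where 15.4% of all genes were higher and 18.6% lower. In bzip60-2 the V4 libraries at 33 °C stood above 10 FPKM of Zm00001d033132 and those at 31 °C below it, which divides its V4 groups as temperature does. With a term for that division, in a fit to all 48 libraries, 454 of the 1030 were higher and 29 lower in bzip60-2, and 26 of the 433 were higher and 223 lower, where 15.8% of all genes were higher and 7.58% lower. The bzip60-2 medians were then 0.63 and -0.65. Only W22 V4 leaves at 37 °C had libraries on both sides of that division. The size of the term therefore rests on replicate 3 of that group against its other replicates. The adjusted counts and medians depend on that library.

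Named genes differed in how far bzip60-2 shared their pattern. The bzip60-2 interaction of Zm00001d014083 was 1.49 (adjusted p = 2.73e-10), which came from V4: bzip60-2 V5 leaves had 11.9 to 12.3 FPKM at 33 °C and 12.7 to 15.4 FPKM at 31 °C, against 6.33 to 8.02 FPKM in its V4 leaves at 33 °C and 24.2 to 27.9 FPKM at 31 °C. The W22 interaction minus that of bzip60-2 was 4.11 for this gene (adjusted p = 1.77e-14). The bzip60-2 interaction of Zm00001d032138 was 1.80 (adjusted p = 1.36e-07) and also came from V4, where bzip60-2 had 0.10 to 0.30 FPKM at 33 °C and 3.61 to 4.38 FPKM at 31 °C. Its V5 leaves had 0.42 to 0.60 FPKM at 33 °C and 0.50 to 1.04 FPKM at 31 °C, and the difference between genotypes was 3.42 (adjusted p = 2.42e-09). For Zm00001d029101 the bzip60-2 interaction was -0.59 (adjusted p = 0.109) and the difference -3.36 (adjusted p = 1.21e-06). For Zm00001d033133 the bzip60-2 interaction was -9.99 (adjusted p = 4.75e-07). In bzip60-2 V4 leaves this gene had 262 to 917 FPKM at 33 °C and 0 to 1.08 FPKM at 31 °C, the groups that Zm00001d033132 also divides. The difference between genotypes was 4.21 (adjusted p = 0.0547). With the term for the library sets the bzip60-2 interaction was -1.72 (adjusted p = 0.563), and the difference turned to -4.07 (adjusted p = 0.213). That term rests on replicate 3 of W22 V4 leaves at 37 °C, which had 785 FPKM of this gene.

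Over all genes, the interaction differed between W22 and bzip60-2 for 6761 of 22045 (30.7%), 5024 higher (22.8%) and 1737 lower (7.88%) in W22, and for 5562 (25.2%) after scaling. With the term for the division by Zm00001d033132, which rests on replicate 3 of W22 V4 leaves at 37 °C, 4884 genes differed. In W22 the V5 libraries were all above 10 FPKM of that gene and the V4 libraries at 33 and 31 °C all below, so a constant offset between the sets drops out of the W22 interaction.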

How the data were processed

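Leaf poly(A) RNA of maize was sequenced by BGI, per the labels' protocols. The authors deposited FPKM values, to 2 decimals, with 1 library in a column per the file headers. The submitters' processing notes name RSEM 1.2.12, Bowtie2 2.2.5, HISAT2 2.0.4, HISAT and DESeq2 1.4.5 without their steps. The genome build is not given in the sources used here, and no counts were used. The treatment of reads from near-identical genes is unknown.

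Values were taken as log2(FPKM + 1), a scale that understates changes of low genes. Genes with at least 1 FPKM in at least 3 of 12 libraries were kept. Of genes not tested, 579 reached 1 FPKM in exactly 2 libraries (median of the mean levels 0.559 FPKM), and of genes tested 780 did so in exactly 3 (0.724 FPKM). The 4 group means were fitted in R 4.3.3 by limma 3.58.1 with trended empirical Bayes, and two-sided p values were adjusted by Benjamini-Hochberg over all genes, with a threshold of 0.05. The comparison with bzip60-2 used 24 libraries. The fits were tested on simulated data. Plots used matplotlib 3.10.9 under Python 3.11.15. Alternatives were scaling by median-of-ratios size factors, filter, pseudocount, array weights, all 48 libraries, replicate block and leaving out each library.

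Genes named were those past the threshold and at least 2-fold on both scales, with a group mean of at least 5 FPKM. They were also kept, as deposited, without each library in turn, and at most 2 identifiers a direction were taken. To these came up to 6 organelle genes a direction. Other organelle genes were added after their values were seen. Members and lists were chosen with earlier results of these data known. Of 30432 nuclear identifiers 0 matched the reference table of names, and all 211 organelle identifiers did, so nuclear gene lists, heat shock and leaf cell type markers among them, were not analysed here. The series text gives several plants per replicate and the protocol 1 sample from each of 3 plants. The p values then measure only the spread between these samples.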

Additional observations from a re-analysis of the deposited data

Results flagged for a closer look

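The 33 against 31 °C change in W22 differed between V5 and V4 for 12367 genes, by the test of the difference itself as deposited. The stage difference in that change differed between W22 and bzip60-2 for 6761 genes. Among the named genes, the W22 interaction minus the bzip60-2 interaction was 4.11 (log2) for Zm00001d014083, 3.42 for Zm00001d032138 and -3.36 for Zm00001d029101. For mitochondrial genes it was 1.24 for rps4 (adjusted p = 0.013), 1.37 for nad9 (adjusted p = 0.0154), 1.36 for nad3 (adjusted p = 0.00131) and 1.12 for rps12 (adjusted p = 0.0139). For plastid genes it was -0.64 for ndhA (adjusted p = 0.0311) and 0.55 for rps3 (adjusted p = 0.0123), where the interaction of rps3 was -0.41 in W22 and -0.96 in bzip60-2. After scaling, the calls of nad9 (1.15, adjusted p = 0.0570), rps12 (0.88, adjusted p = 0.0570) and rps3 (0.30, adjusted p = 0.165) were lost. With a term for the division of the libraries by Zm00001d033132, those of mitochondrial rps4 (1.30, adjusted p = 0.134), nad3 (0.65, adjusted p = 0.267) and plastid rps3 (-0.04, adjusted p = 0.915) were lost. The other differences named here kept their direction and call, with 4.30 for Zm00001d014083, 3.63 for Zm00001d032138, -3.93 for Zm00001d029101, 1.57 for nad9, 1.41 for rps12 and -1.40 for ndhA. The size of that term rests on replicate 3 of W22 V4 leaves at 37 °C.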

How the results depend on the processing

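Scaling changed the counts by direction. Size-factor scaling was run alone, with the replicate block, and with no filter. In that order, genes called higher were 3917, 3796 and 4046, and genes called lower 5124, 5080 and 5005. Genes 2-fold higher were 1030, 1032 and 1022, and genes 2-fold lower 1023, 1025 and 1017. Plastid genes called lower were 17 and 17 of 27, and 16 of 39 without the filter, against 8 of 27 as deposited. Mitochondrial genes called higher were 3 and 4 of 16, and 2 of 27 without the filter, against 11 of 16 as deposited. Of all genes, 24.7% were lower and 18.9% higher with scaling alone, and 10.2% and 49.3% as deposited. Without the filter and with scaling these shares were 16.3% and 13.2%. Several of the 16 mitochondrial genes passed the filter through the V5 libraries in which they were high. With a pseudocount of 0.1 mitochondrial genes called higher were 7 of 16. With a filter of a group mean of at least 5 FPKM they were 6 of those past that filter. Leaving out each library in turn gave 11598 to 12002 genes called for the interaction, 9549 to 9957 higher and 2011 to 2064 lower. Genes 2-fold higher were 2397 to 2484, and genes 2-fold lower 420 to 446. Genes called were 12919 to 14064 at V5, 4459 to 5165 at V4 and 6331 to 6736 for the genotype difference. Plastid genes called lower were then 6 to 9 of 27, and mitochondrial genes called higher 10 to 13 of 16. Of 18 same-numbered pairs of replicates 0 correlated over 0.1 (-0.0405 to 0.0346), although 8 of 12 libraries correlated best with their own number. With the replicate block in the fit 12261 genes were called. The W22 interactions of the genes named by the rules above kept their direction in every alternative run. Of these values 13 of 157 fell short of the threshold, with rpl22 at an adjusted p of 0.136 in the fit to all 48 libraries. Genotype differences are not among them, and those of Zm00001d033133 and plastid rps3 turned with the library-set term. The filter on the mean and the fits pairing scaling with no filter or the library-set term were added after seeing the data. The cause of these shifts was not tested.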
